A study of Homo sapiens with 24 samples.

Results

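Focal adhesions are the sites where a cell grips its matrix. Integrins, the receptors that bind the matrix, are coupled there to actin filaments by talins, kindlins and vinculin, while kinases and scaffold proteins at the same sites relay signals into the cell. TGFβ is known to induce matrix, cytoskeletal and adhesion genes in many epithelial and mesenchymal cells. Described here are 41 focal adhesion genes, listed by symbol, out of 34834 genes with an identified transcript: adaptors, kinases and actin linkers, without the integrins themselves. All 41 passed the filter on low counts, together with 17454 genes of the series in all, although LIMS2, TNS1 and KANK4 averaged under 1 TPM (kallisto abundance, corrected for transcript length and library size).

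The cells were SK-MES1, an established line of human lung squamous cell carcinoma. They were deprived of growth factors for 3 h and then left untreated or given 2 ng/ml TGFβ1, and RNA was taken at 0, 8, 24 and 48 h. Each arm had 3 replicates per time point, which gives 24 libraries of 46613589 to 77964234 estimated counts. The labels number the replicates but do not say whether they came from separate experiments, so p-values measure the spread between these dishes. As 1 cell line, it stands for no other tumour. The line expressed KRT8, KRT18 and KRT19 at 242.1 TPM or more in every library. The other epithelial markers stood lower, EPCAM at 21.6 to 37.0 TPM and CDH1 at 0.969 to 5.74 TPM. Among the squamous markers TP63 was at 7.69 to 37.5 TPM, SOX2 at 0.372 to 8.17 TPM and DSC3 at 0.32 to 1.55 TPM. DSG3 reached at most 0.0339 TPM, and the squamous keratins KRT5, KRT14 and KRT6A stayed at or below 0.102 TPM. The summed level of 5 fibroblast markers at 8 to 48 h was 20.1 to 58.9 TPM in untreated cells and 20.7 to 50 TPM in the TGFβ arm. Among the endothelial markers PECAM1 was at 0.582 to 4.14 TPM, while VWF and CDH5 reached at most 0.342 and 0.151 TPM. Among the leukocyte markers CD68, also a lysosomal protein of other cells, was at 7.64 to 40.2 TPM, PTPRC was at 1.26 to 2.10 TPM, and the T cell marker CD3E was listed at 0. The summed endothelial level at 8 to 48 h was 1.04 to 3.18 TPM in untreated cells and 0.863 to 4.54 TPM in the TGFβ arm, and the summed leukocyte level was 10.2 to 26.8 and 9.09 to 28.9 TPM. The part of these markers in the differences between the arms was not tested.

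Each arm carried 1 library code for 0 and 8 h and another for 24 and 48 h, and the labels do not say what the codes stand for. At 24 and 48 h code and treatment cannot be told apart. The arms carried different codes at 8 h too, so the plain difference at 8 h is also a difference between codes. The net change from 0 to 8 h (the change in the TGFβ arm minus that in untreated cells) and the change of the difference from 24 to 48 h are free of a constant offset between codes. Replicate 2 stood apart at 0 and 24 h in both arms, where the chi-square per gene between libraries of a group was 14.7 to 60.5 for pairs with replicate 2 and 4.13 to 16.8 for replicates 1 and 3, the former larger in each group. Of the 41 genes, 20 were lowest in TPM in replicate 2 of both arms at 24 h, FLNA, ZYX, TRIP6 and PDLIM7 among them.

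Of the 41 genes, 24 were higher and 5 lower in the TGFβ arm in the F-test over 8, 24 and 48 h (limma voom, adjusted p below 0.01). The F-test has no direction of its own, so higher and lower refer to the mean of the 3 differences. NEDD9, a scaffold of the Cas family, LIMS1, the PINCH adaptor of integrin-linked kinase, and PDLIM7, a PDZ-LIM adaptor of actin bundles, stood highest, with mean log2 differences of 2.92, 2.02 and 1.99. TNS3 and TNS2, which link integrin tails to actin, and KANK1, which rings adhesions and ties them to microtubules, were lower by 0.71, 0.53 and 0.56 on the same scale. Among all tested genes, 21% were called higher, 21.5% lower and 42.5% in either direction. The median of the mean log2 difference was 0.30 over the 41 genes and -0.02 over all tested genes.

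At 8 h, 23 of the 41 genes were higher and 2 lower, against 9.12% and 7.26% of all tested genes. At 24 h, 21 were higher and 4 lower, against 15.4% and 13.8%. At 48 h, 20 were higher and 4 lower, against 16.1% and 16.4%. The same 18 genes were called higher at all of 8, 24 and 48 h, and KANK1 and TNS3 were called lower at all of them. The shares of all tested genes called at all 3 times are not given here, so these 2 sets cannot be set against them. The splits at 8, 24 and 48 h depend on the scaling. Scaled to library totals, 18 genes were higher and 4 lower at 8 h, 18 and 8 at 24 h, and 18 and 6 at 48 h. Upper-quartile factors gave 19 higher and 7 lower at 24 h. The shares of all tested genes under library totals and upper-quartile factors are not given here. Whether these counts follow a shift of all tested genes was therefore not tested. Scaled to the 3 reference genes GUSB, HPRT1 and GAPDH, an alternative chosen after the data were seen, 29 were higher and 2 lower at 24 h, and 29 and 2 at 48 h, against 46.2% and 4.09%, and 47.8% and 5.52%, of all tested genes. That scaling moved the median of all tested genes to 0.35 at 24 h and 0.38 at 48 h, from -0.02 and -0.01. With replicate 2 of 0 and 24 h left out in both arms, also an alternative added after the data were seen, 27 genes were higher and 4 lower at 8 h, 22 and 5 at 24 h, and 21 and 7 at 48 h. The matching shares of all tested genes were 14.9% and 12.5%, 18.2% and 16%, and 22.2% and 22.4%.

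No focal adhesion gene was called at 0 h, where 0% of all tested genes were called by limma voom and 801 had an unadjusted p below 0.05. LIMS2, at 0.142 TPM in untreated cells and 0.446 TPM in the TGFβ arm at 0 h, had a log2 difference of 2.25 there with an adjusted p of 0.99. The libraries of the arms did not overlap in TPM at any of 8, 24 and 48 h, in the same direction, for 25 of the 41 genes, 21 of them higher and 4 lower with TGFβ. The same held for 18.8% of all tested genes. LPP was in this set of 4 without being called in the F-test, with a mean log2 difference of -0.09 in counts.

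**Figure D1:**
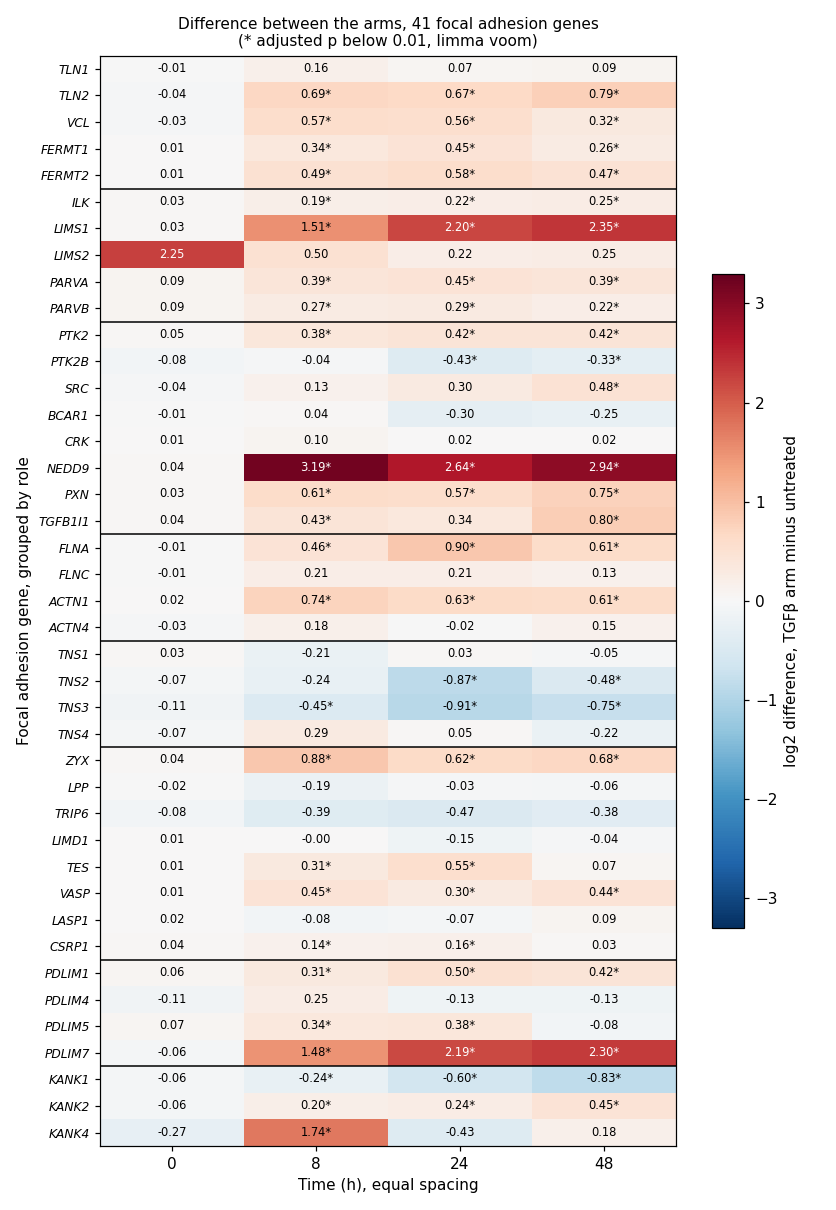
Log2 difference between the TGFβ arm and untreated cells (colour and number; limma voom) for 41 focal adhesion genes (rows, grouped by role) at 0, 8, 24 and 48 h (columns); stars mark an adjusted p below 0.01. NEDD9, LIMS1 and PDLIM7 stand above the other genes at 24 and 48 h, and the deepest negative values are those of TNS3, TNS2 and KANK1.

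The first role group couples integrins to actin. Talins and kindlins bind integrin tails and switch integrins on, and vinculin strengthens the link between talin and actin. VCL, FERMT1, FERMT2 and TLN2 were higher in the TGFβ arm at 8, 24 and 48 h, and TLN1 was not called. TLN1 was the more abundant talin, with 57.4 to 75.3 TPM over the 24 libraries, and its log2 difference was at most 0.16 (adjusted p = 0.18 at 8 h). VCL had log2 differences of 0.57 ± 0.041 (SE) at 8 h and 0.32 ± 0.042 at 48 h (limma, adjusted p = 7.2e-10 and 1.6e-06).

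Both kindlins were higher with TGFβ, FERMT2 by more than FERMT1. At 48 h FERMT2 was at 29.8 and 40.2 TPM without and with TGFβ, and FERMT1 at 5.71 and 6.55 TPM. FERMT2, at 25.8 TPM without and 38.4 TPM with TGFβ at 24 h, had a log2 difference of 0.58 ± 0.066 (adjusted p = 3.5e-07). FERMT1 stood lower, at 5.98 and 8.05 TPM, with a log2 difference of 0.45 ± 0.061 (adjusted p = 3.7e-06). Its call at 48 h was lost without replicate 1 of either arm at that time (adjusted p = 0.013 and 0.014). The mean level of FERMT1 was highest at 8 h in both arms, while FERMT2 in the TGFβ arm was at 40.2 TPM at 48 h.

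TLN2 fell in untreated cells and stayed higher with TGFβ. At 0 h its TPM was 15.1, 15.6 and 17.8 in untreated cells and 13.4, 15.0 and 17.7 in the TGFβ arm. At 8 h it was 8.54, 10.9 and 9.89 against 12.3, 13.7 and 11.7. At 24 h it was 8.4, 5.84 and 6.58 against 10.7, 14.7 and 9.32, and at 48 h 6.41, 6.88 and 6.68 against 9.96, 8.20 and 10.4. The arms overlapped at 0 h and were apart at each later time, with every untreated library below every TGFβ library. Between the arms, log2 differences were 0.69, 0.67 and 0.79 (adjusted p = 0.0017, 0.0017 and 0.00035). From 0 to 8 h untreated cells lost 1.13 on the log2 scale (adjusted p = 4.8e-06). These calls are limited: on log2(TPM + 1) the differences were 0.33 at 8 h and 0.45 at 48 h (adjusted p = 0.11 and 0.015), and transcripts with no defined coding sequence or a retained intron made up 29.1 to 58.3% of the TLN2 TPM. The call at 8 h was lost without replicate 1 or 3 of the untreated cells or replicate 2 of the TGFβ arm at that time (adjusted p up to 0.019). The share of the transcript TLN2-210, one of these, was 23.1% in untreated cells and 6.93% in the TGFβ arm at 48 h. The canonical TLN2 transcript held 0.0% of the TLN2 TPM throughout.

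Integrin-linked kinase, PINCH and parvin form a complex that sits on integrin tails and binds actin. Of its 5 genes, ILK, LIMS1, PARVA and PARVB were higher at 8, 24 and 48 h, and LIMS2 was not called. LIMS1, which encodes PINCH1 (chromosome 2, 108533671 to 108687246, GRCh38), stood out. In untreated cells its TPM was 32.1, 34.2 and 32.9 at 8 h, 33.0, 34.8 and 31.1 at 24 h, and 29.0, 30.0 and 31.3 at 48 h. With TGFβ it was 90.5, 87.7 and 94.6 at 8 h, 132.3, 159.9 and 135.7 at 24 h, and 150.6, 151.0 and 154.0 at 48 h. Every TGFβ library stood above every untreated library from 8 h on, and the untreated level stayed near its 0 h range of 30.0 to 36.2. Differences on the log2 scale were 1.51 ± 0.082, 2.20 ± 0.081 and 2.35 ± 0.082 (adjusted p = 6.7e-12, 5.1e-15 and 1.3e-15), or 5.11-fold at 48 h. The net change from 0 to 8 h was 1.48 ± 0.12 (adjusted p = 1.1e-08). LIMS3 and LIMS4 are near-identical to parts of LIMS1. Their TPM was 0 to 5.14 and 0, so reads that kallisto divides between these genes leave the level of LIMS1 uncertain.

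The kinase and the parvins moved far less than LIMS1. ILK, at 95.8 to 127.4 TPM over all libraries, had log2 differences of 0.19, 0.22 and 0.25 (adjusted p = 0.0098, 0.0023 and 0.00064). PARVA had 0.39, 0.45 and 0.39, and PARVB had 0.27, 0.29 and 0.22. All these values passed the threshold, and the libraries of the arms did not overlap for any of the 3 genes at 8, 24 or 48 h. The call of ILK at 8 h was lost in 17 of the 24 fits that left out 1 library, with adjusted p up to 0.046, and that at 24 h without untreated replicate 2 or TGFβ replicate 1 or 3 of that time (up to 0.015).

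**Figure D2:**
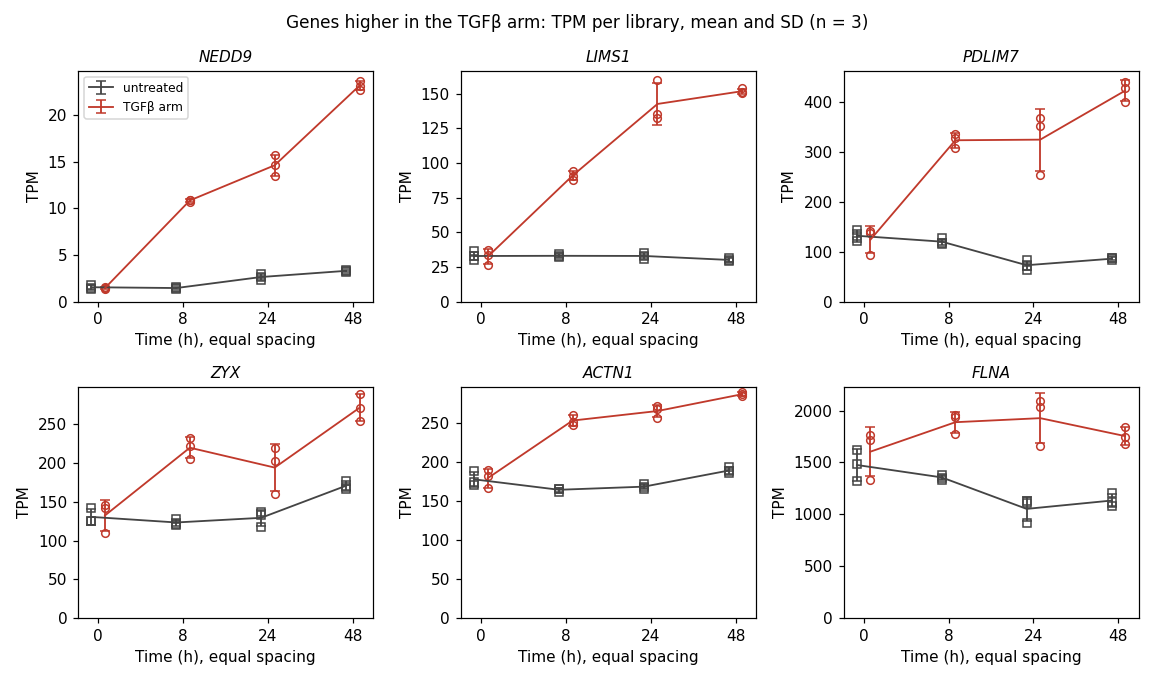
TPM of NEDD9, LIMS1, PDLIM7, ZYX, ACTN1 and FLNA (vertical axes) in each library (open symbols) with group mean and SD (lines and bars, n = 3), in untreated cells (grey squares) and the TGFβ arm (red circles) at 0, 8, 24 and 48 h (equal spacing). The arms overlap at 0 h and are apart at 8, 24 and 48 h for these 6 genes.

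Kinases and scaffolds carry the signalling of the adhesion. Focal adhesion kinase (PTK2) and SRC phosphorylate the scaffolds paxillin (PXN), p130Cas (BCAR1) and NEDD9, and CRK docks on the phosphorylated scaffolds. Of 8 genes, 5 were higher in the F-test (PTK2, SRC, NEDD9, PXN, TGFB1I1), PTK2B was lower, and BCAR1 and CRK were not called.

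NEDD9 (chromosome 6, 11183298 to 11382348, GRCh38) showed the largest difference of the 41 genes at each of 8, 24 and 48 h. In untreated cells its TPM was 1.47, 1.33 and 1.57 at 8 h, 2.64, 2.97 and 2.30 at 24 h, and 3.41, 3.15 and 3.33 at 48 h. Libraries of the TGFβ arm held 10.9, 10.9 and 10.7 at 8 h, 13.5, 15.7 and 14.6 at 24 h, and 23.1, 22.7 and 23.6 at 48 h. Both arms rose from 24 to 48 h, by 0.31 and 0.61 on the log2 scale, and all TGFβ libraries stood above all untreated ones. The log2 differences were 3.19 ± 0.073, 2.64 ± 0.064 and 2.94 ± 0.060 (adjusted p = 3.9e-18, 3.8e-18 and 2.2e-19), and the net change from 0 to 8 h was 3.15 ± 0.12 (adjusted p = 5.4e-14). The transcript NEDD9-202 held 81.1% of the TPM of the gene in untreated cells and 96.3% in the TGFβ arm at 24 h, and 86.2% and 97.1% at 48 h, with no overlap of libraries. BCAR1, the relative of NEDD9, was at 82.1 TPM in untreated cells and 64.5 TPM in the TGFβ arm at 48 h, a log2 difference of -0.25 (adjusted p = 0.25).

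Paxillin fell with time in untreated cells. PXN was at 235.7, 223.8 and 230.5 TPM at 0 h, 196.7, 199.3 and 191.7 at 8 h, 173.9, 169.1 and 172.5 at 24 h, and 136.2, 128.4 and 128.1 at 48 h. With TGFβ it was at 213.6, 228.2 and 240.3, then at 292.2, 292.2 and 272.9, at 258.3, 241.8 and 254.8, and at 225.9, 220.1 and 214.6 TPM at the same times. The untreated libraries thus held less at each later time, whereas the TGFβ libraries rose at 8 h and were back in their 0 h range at 48 h. Between the arms, log2 differences were 0.61 ± 0.049, 0.57 ± 0.050 and 0.75 ± 0.050 (adjusted p = 3.7e-09, 5.8e-09 and 8e-11).

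TGFB1I1 encodes Hic-5, a relative of paxillin. Its TPM in untreated cells was 31.2, 32.5 and 31.1 at 8 h, 28.2, 27.7 and 31.2 at 24 h, and 25.1, 24.5 and 24.5 at 48 h. Under TGFβ the values were 42.0, 39.4 and 36.1, then 36.7, 35.5 and 35.0, then 43.1, 46.0 and 41.5. The libraries of the arms were apart at all of these times, and the log2 differences were 0.43, 0.34 and 0.80 (adjusted p = 0.0058, 0.024 and 6.8e-06), of which the value at 24 h missed the threshold. Leaving out any of the 6 libraries at 8 h other than replicate 3 of the TGFβ arm lost the call at 8 h (adjusted p up to 0.025), and leaving out replicate 2 of the TGFβ arm at 0 or 24 h brought the value at 24 h past the threshold (0.0082 at most).

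The kinases differed among themselves. PTK2 had log2 differences of 0.38, 0.42 and 0.42 (adjusted p = 2.7e-07, 3.5e-08 and 3e-08). SRC was called at 48 h, with 0.48 ± 0.088 (adjusted p = 0.00014), and not at 8 or 24 h (0.13 and 0.30, adjusted p = 0.31 and 0.011). The value of SRC at 24 h passed the threshold without replicate 2 of the TGFβ arm at 24 h (0.40, adjusted p = 0.00067), without replicate 1 or 2 of that arm at 0 h (0.0091 and 0.0027) and without replicate 1 of untreated cells at 0 h (0.01 after rounding). PTK2B, which encodes the kinase PYK2, was lower in counts at 24 and 48 h (-0.43 and -0.33, adjusted p = 5.9e-06 and 0.00016). With the 3 reference genes these values were -0.06 and 0.06, and neither was called. In TPM the arms of PTK2B overlapped at 48 h, at 8.61 to 8.93 in untreated cells and 7.81 to 8.69 with TGFβ. They did not overlap at 0 h, at 4.95 to 5.85 and 4.11 to 4.68 TPM, where the difference in counts was not called. CRK, at 32.1 to 42.4 TPM in all libraries, had log2 differences of 0.10, 0.02 and 0.02.

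Actin crosslinkers hold the filaments that end at the adhesion. FLNA and ACTN1 were higher at 8, 24 and 48 h, and FLNC and ACTN4 were not called at any time in the main fit. Without replicate 2 of 0 and 24 h, FLNC was called at 8 h and ACTN4 at 8 and 48 h. With the 3 reference genes ACTN4 was called higher at 8, 24 and 48 h (0.23, 0.35 and 0.54) and FLNC at 24 and 48 h (0.58 and 0.52). That scaling put the median of all tested genes at 0.04, 0.35 and 0.38 at 8, 24 and 48 h. FLNA (filamin A) was the most abundant of the 41 genes. Its TPM in untreated cells was 1382.3, 1351.1 and 1333.6 at 8 h, 1128.8, 919.7 and 1107.1 at 24 h, and 1203.8, 1115.6 and 1077.4 at 48 h. The TGFβ arm held 1955.0, 1939.9 and 1770.1, then 2093.2, 1654.4 and 2034.5, then 1844.8, 1742.7 and 1675.5. The arms were apart at these 3 times, with 1654.4 TPM the lowest of the TGFβ libraries and 1382.3 TPM the highest of the untreated ones. Differences on the log2 scale were 0.46 ± 0.12, 0.90 ± 0.12 and 0.61 ± 0.12 (adjusted p = 0.0068, 3.5e-06 and 0.00031), and the net change from 0 to 8 h, 0.47, was not called (adjusted p = 0.083). The call at 8 h was lost without any 1 of the 6 libraries of that time, with adjusted p up to 0.030.

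ACTN1 (α-actinin-1) was at 165.2, 165.4 and 161.3 TPM in untreated cells at 8 h, at 171.0, 164.8 and 168.1 at 24 h, and at 192.9, 187.9 and 185.0 at 48 h. With TGFβ it was at 259.7, 246.9 and 251.1, at 267.9, 271.0 and 255.4, and at 286.2, 283.7 and 289.1. The arms were apart at all 3 times. The log2 differences were 0.74 ± 0.064, 0.63 ± 0.065 and 0.61 ± 0.065 (adjusted p = 1.4e-08, 8e-08 and 9.7e-08). ACTN4 was the more abundant α-actinin, at 414.8 TPM in untreated cells and 425.9 TPM in the TGFβ arm at 48 h (log2 difference 0.15, adjusted p = 0.22).

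Tensins bind integrin tails, and most of them also bind actin, in the more mature, fibrillar adhesions. In the main fit none of the 4 was called higher, and TNS2 and TNS3 were lower in the F-test. TNS3 in untreated cells was at 70.3, 63.0 and 67.0 TPM at 0 h, 106.4, 104.2 and 106.9 at 8 h, 156.7, 144.1 and 160.5 at 24 h, and 161.3, 147.1 and 150.5 at 48 h. With TGFβ it was at 57.9, 57.7 and 67.3, at 73.1, 75.3 and 76.2, at 85.6, 75.2 and 84.3, and at 99.4, 96.7 and 93.4. Both arms thus rose from 0 to 8 h, by 0.61 and 0.26 on the log2 scale (adjusted p = 1.1e-07 and 0.0015), and from 8 h on every TGFβ library was below every untreated one. Between the arms, log2 differences were -0.45 ± 0.060, -0.91 ± 0.060 and -0.75 ± 0.060 (adjusted p = 6.4e-06, 6e-11 and 1.1e-09), and -0.40, -0.54 and -0.36 with the 3 reference genes. The net change from 0 to 8 h was -0.34 ± 0.087 (adjusted p = 0.0097).

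TNS2 showed a similar course at a lower level. In untreated cells it was at 11.5, 11.6 and 10.6 TPM at 8 h, 21.3, 20.6 and 21.2 at 24 h, and 23.2, 17.2 and 22.5 at 48 h. Under TGFβ the values were 11.3, 9.14 and 8.55, then 10.4, 7.20 and 10.9, then 13.4, 14.3 and 14.1. The arms overlapped at 8 h and were apart at 24 and 48 h. The log2 differences in counts were -0.24, -0.87 and -0.48 (adjusted p = 0.069, 8e-08 and 0.00015), and with the 3 reference genes the value at 48 h, -0.08, was no longer called. TNS4 was higher at each later time in both arms, going from 9.50 to 43.8 TPM in untreated cells and from 8.81 to 36.1 TPM in the TGFβ arm between 0 and 48 h. Its difference between the arms was not called at any time in the main fit. In TPM the libraries were apart at 8 h, at 13.3 to 14.5 without and 15.9 to 16.8 with TGFβ. At 48 h they were apart the other way, at 41.3 to 45.9 and 33.6 to 38.0. Without replicate 2 of 0 and 24 h TNS4 was called at 8 and 48 h. With the 3 reference genes it was called higher at 8 and 24 h (0.34 and 0.42).

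**Figure D3:**
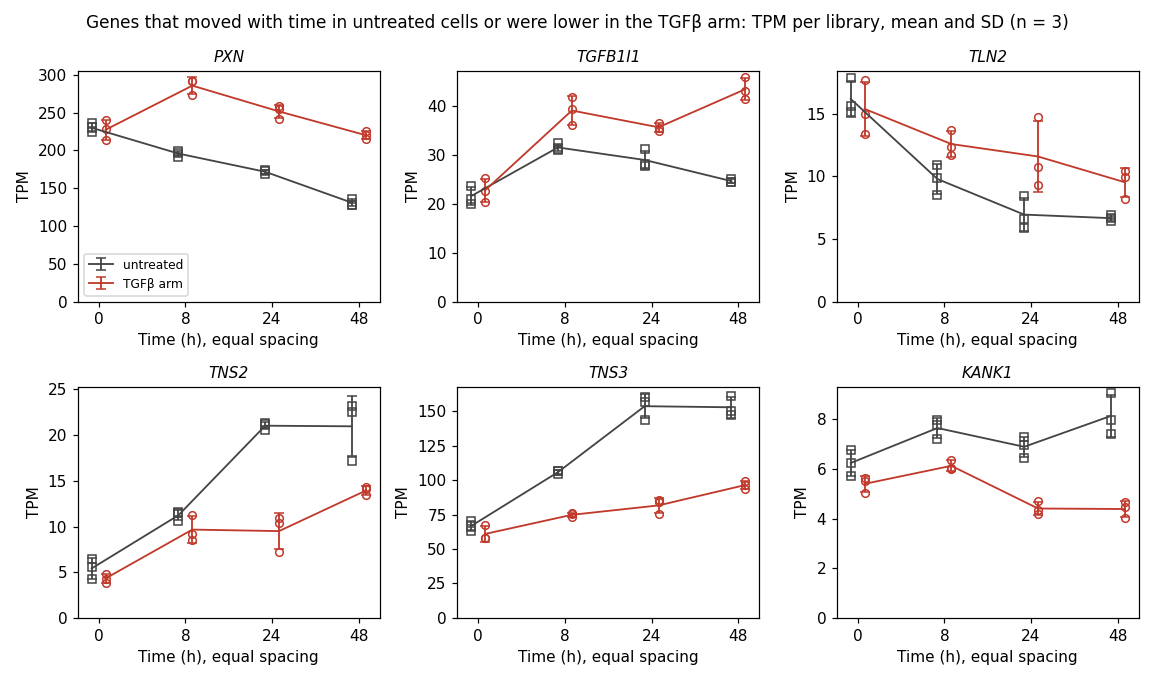
TPM of PXN, TGFB1I1, TLN2, TNS2, TNS3 and KANK1 (vertical axes) in each library (open symbols) with group mean and SD (n = 3), in untreated cells (grey squares) and the TGFβ arm (red circles) at 0, 8, 24 and 48 h (equal spacing). PXN and TLN2 fall and TNS2 and TNS3 rise with time in untreated cells, and the TGFβ arm lies above the former and below the latter at 24 and 48 h.

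Zyxin, VASP and their relatives gather where adhesions bear force and help actin to grow there. Of 8 genes, ZYX, VASP, TES and CSRP1 were higher in the F-test, TRIP6 was lower, and LPP, LIMD1 and LASP1 were not called. ZYX in untreated cells was at 120.3, 127.9 and 121.8 TPM at 8 h, 137.3, 117.5 and 133.2 at 24 h, and 177.1, 169.0 and 166.2 at 48 h. In the TGFβ arm it was at 232.1, 222.8 and 205.0, at 219.5, 160.1 and 203.2, and at 289.4, 271.3 and 254.1. Replicate 2 of the TGFβ arm at 24 h was the lowest of its group and still above the untreated libraries of that time. Differences on the log2 scale were 0.88 ± 0.12, 0.62 ± 0.12 and 0.68 ± 0.12 (adjusted p = 6.4e-06, 0.00026 and 7.2e-05). The value at 24 h was 0.64 with an adjusted p of 0.014 when the libraries of that time point were fitted alone.

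The other genes of this group differed by smaller amounts. VASP, an elongation factor of actin filaments, had log2 differences of 0.45, 0.30 and 0.44 (adjusted p = 3.1e-06, 0.00025 and 2.3e-06). CSRP1 had 0.14 and 0.16 at 8 and 24 h and 0.03 at 48 h (adjusted p = 0.0048, 0.00089 and 0.54), and its call at 8 h was lost without any 1 of the 6 libraries of that time. TRIP6, a zyxin relative, had -0.39, -0.47 and -0.38, none called alone (adjusted p = 0.045, 0.011 and 0.036), and passed the F-test with an adjusted p of 0.0019. Without replicate 2 of the TGFβ arm at 0 h each of the 3 values was called (adjusted p = 0.0098, 0.0017 and 0.0082). The value at 24 h was also called without replicate 1 of that arm at 0 h or at 24 h, or without replicate 2 of untreated cells at 24 h (adjusted p = 0.007, 0.0061 and 0.0047). With the 3 reference genes its values were -0.34, -0.10 and 0.01, of which the first was called (adjusted p = 0.0088).

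The PDZ-LIM genes encode adaptors that place LIM domains on actin bundles. PDLIM7 (chromosome 5, 177483394 to 177497606, GRCh38) was at 117.7, 127.2 and 116.0 TPM in untreated cells at 8 h, at 82.8, 64.1 and 72.3 at 24 h, and at 88.1, 87.0 and 83.1 at 48 h. In the TGFβ arm it was at 335.9, 327.6 and 307.3, at 368.7, 253.8 and 352.0, and at 440.7, 428.4 and 399.9. Every TGFβ library exceeded every untreated one, the lowest being replicate 2 at 24 h. The log2 differences were 1.48 ± 0.14, 2.19 ± 0.14 and 2.30 ± 0.14 (adjusted p = 2.7e-08, 4.6e-11 and 1.3e-11), 4.94-fold at 48 h, and the net change from 0 to 8 h was 1.54 ± 0.20 (adjusted p = 7.2e-06). PDLIM1 had log2 differences of 0.31, 0.50 and 0.42, all called, and PDLIM4 was not called (0.25, -0.13 and -0.13).

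KANK proteins surround adhesions and bind talin. KANK1 was at 7.76, 7.99 and 7.20 TPM in untreated cells at 8 h, at 6.96, 6.45 and 7.27 at 24 h, and at 9.05, 7.39 and 7.97 at 48 h. In the TGFβ arm it was at 6.38, 5.98 and 6.02, at 4.33, 4.69 and 4.20, and at 4.47, 4.02 and 4.67. The arms did not overlap at these times, and they did not overlap at 0 h either, where untreated libraries held 5.72 to 6.77 and TGFβ libraries 5.02 to 5.65 TPM (log2 difference -0.06 in counts, not called). Between the arms, log2 differences were -0.24 ± 0.043, -0.60 ± 0.046 and -0.83 ± 0.046 (adjusted p = 0.00026, 6.6e-10 and 3.8e-12). With the 3 reference genes they were -0.18, -0.24 and -0.43, of which the last was called.

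KANK2, at 46.8 to 90.0 TPM, moved the other way, with log2 differences of 0.20, 0.24 and 0.45 (adjusted p = 0.0085, 0.00098 and 7.5e-07). The call at 8 h was lost in 14 of the 24 fits that left out 1 library. KANK4 was close to 0. It was at 0.0891, 0.116 and 0.117 TPM in untreated cells and 0.280, 0.437 and 0.399 TPM in the TGFβ arm at 8 h, with a log2 difference of 1.74 ± 0.19 (adjusted p = 3.1e-07). At 24 h the untreated libraries held 0.601, 0.659 and 0.537 TPM and the TGFβ libraries 0.332, 0.509 and 0.301, and at 48 h 0.281, 0.209 and 0.276 against 0.269, 0.262 and 0.298. The order of the arms was therefore the opposite at 24 h and absent at 48 h, and neither difference was called (-0.43 and 0.18, adjusted p = 0.015 and 0.43). KANK4 still counts among the 24 genes higher in the F-test, by the mean of its 3 differences.

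Related genes were set against each other by the log2 ratio of their TPM. Of 12 pairs, 9 had both members at an average of 0.5 TPM or more. An exact permutation test exchanged libraries between the arms within 8, 24 and 48 h (8000 relabellings, two-sided, smallest possible p 0.00025, not adjusted over the 9 pairs). NEDD9 relative to BCAR1 shifted most, by 2.96 (exact p = 0.00025), from a TPM ratio of 0.0401 in untreated cells to 0.359 in the TGFβ arm at 48 h. The KANK2 to KANK1 ratio shifted by 0.86 (exact p = 0.00025) and stood at 8.02 and 19.2 at 48 h. ACTN4 relative to ACTN1 shifted by -0.61 (exact p = 0.00025), from 2.20 to 1.49 at 48 h, so ACTN4 remained the more abundant of the pair.

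The other 6 pairs shifted by 0.68 or less in either direction. TNS3 relative to TNS4 shifted by -0.68 and FLNC relative to FLNA by -0.51 (exact p = 0.00025 for each). The TLN2 to TLN1 ratio shifted by 0.43 (exact p = 0.00075). PARVB relative to PARVA, FERMT2 relative to FERMT1 and TGFB1I1 relative to PXN shifted by -0.22, 0.18 and -0.14 (exact p = 0.00025, 0.00025 and 0.013). The TGFB1I1 to PXN ratio was lower with TGFβ at 8 and 24 h and not at 48 h, where its mean log2 values were -2.41 in untreated cells and -2.34 in the TGFβ arm.

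**Figure D4:**
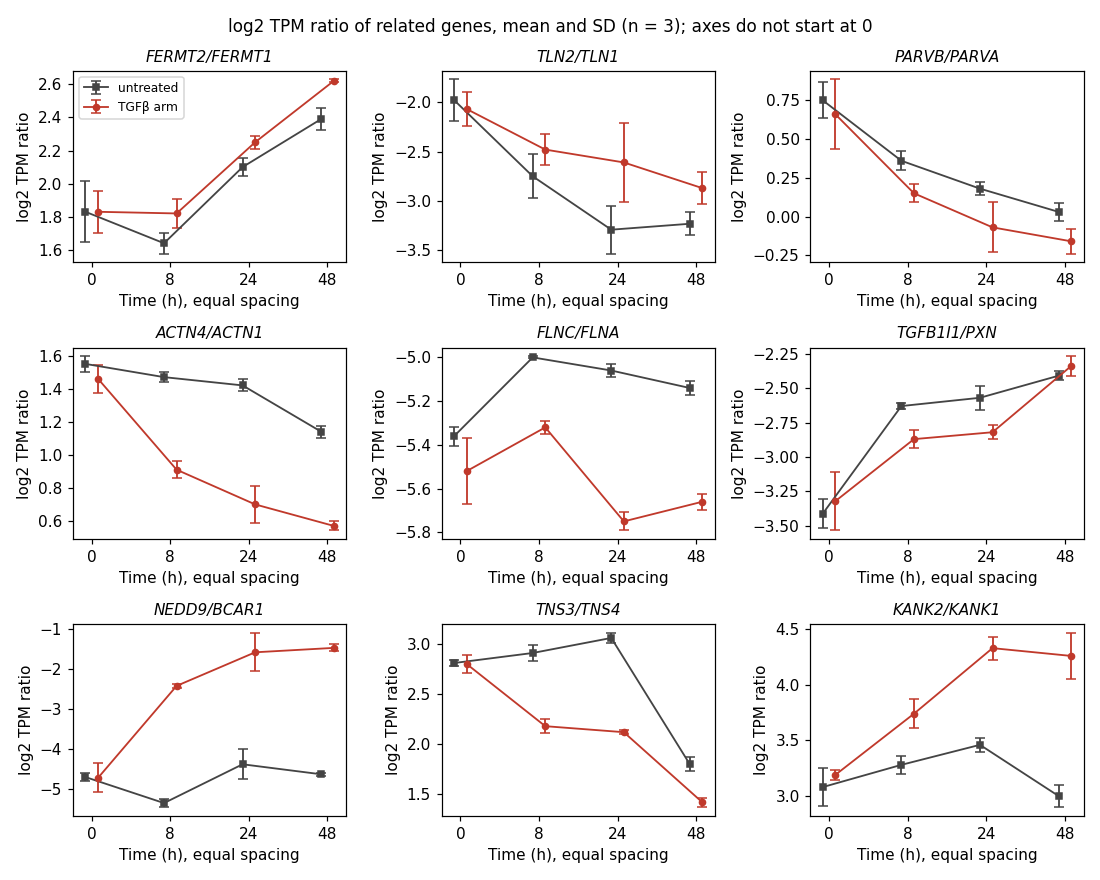
Log2 TPM ratio (vertical axes, which do not start at 0) of 9 pairs of related genes as mean and SD (n = 3) in untreated cells (grey squares) and the TGFβ arm (red circles) at 0, 8, 24 and 48 h (equal spacing). The largest gap between the arms is that of NEDD9 to BCAR1, with a mean shift of 2.96.

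Many of these genes moved with time in cells that were given no TGFβ. From 0 to 8 h in untreated cells 13 of the 41 genes rose and 3 fell (TLN2, VCL and PXN), against 13.2% and 12.7% of all tested genes. In the TGFβ arm 29 rose and 0 fell over the same hours, against 17.5% and 16.3%, and 11 of these 29 were also called higher in untreated cells. The net change from 0 to 8 h was called higher for 13 genes and lower for TNS3, against 5.05% and 2.84%. The 13 were NEDD9, KANK4, PDLIM7, LIMS1, ZYX, ACTN1, VCL, PXN, FERMT2, VASP, PTK2, PARVA and TES, and all of them were also called higher at 8 h.

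From 24 to 48 h untreated cells showed 8 rises and 4 falls among the 41 genes, against 14.8% and 13.6% of all tested genes. In the TGFβ arm 7 rose and 4 fell, against 12.4% and 13.4%. The count in the TGFβ arm was lower in some fits without 1 library. Without replicate 1, 2 or 3 of that arm at 48 h 6, 7 and 7 genes were called, and without replicate 3 at 24 h 7. Calls among all tested genes were fewer too, 3494, 3519, 3874 and 3953 in these fits, in place of 4505. With the 3 reference genes 37 rose and 1 fell in untreated cells and 38 rose and 0 fell in the TGFβ arm, against 60.3% and 2.03%, and 60.7% and 1.95%, of all tested genes, and the median tested gene moved by 0.49 and 0.51. With replicate 2 of 0 and 24 h left out in both arms, 12 rose and 11 fell in untreated cells, against 18.6% and 18.8%, and 8 rose and 11 fell in the TGFβ arm, against 15.6% and 17.3%.

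The difference between the arms narrowed from 24 to 48 h for VCL, TES and PDLIM5. This value, the difference at 48 h minus that at 24 h, was called negative for these 3 of 41 genes (7.3%, limma voom). Among all tested genes 5.61% were called negative. It was called positive for none of the 41 and for 3.5% of all tested genes. The count is near the share of all tested genes and does not set the 41 genes apart. TES, a LIM protein that binds zyxin, was at 56.1 ± 2.44 TPM in untreated cells and 81.5 ± 3.68 TPM in the TGFβ arm at 24 h (SD, n = 3), and at 80.2 ± 1.23 and 83.0 ± 1.51 TPM at 48 h. Untreated cells rose by 0.44 on the log2 scale (adjusted p = 1.4e-08), and the TGFβ arm changed by -0.03 (adjusted p = 0.54). PDLIM5 went from 23.2 ± 1.06 to 32.0 ± 1.16 TPM in untreated cells and from 28.1 ± 0.561 to 29.1 ± 0.847 TPM with TGFβ. Its log2 difference of 0.38 at 24 h was -0.08 at 48 h, where it was not called. In TPM every TGFβ library of PDLIM5 was then below every untreated one (28.3 to 30.0 against 30.7 to 32.8). VCL went from 51.2 ± 0.466 to 60.3 ± 3.03 TPM in untreated cells and from 72.2 ± 2.87 to 75.2 ± 0.843 TPM with TGFβ, and was still called higher at 48 h. The call of VCL was lost in 8 of 12 other settings and in 16 of 24 fits without 1 library. With replicate 2 of 0 and 24 h left out in both arms, 4 genes were called positive and 3 negative, against 6.39% and 8.54% of all tested genes, with TES and PDLIM5 still called and VCL not (adjusted p = 0.016). Scaled to the 3 reference genes, VCL, TES and PDLIM5 had -0.22, -0.45 and -0.44 and none was called (adjusted p = 0.32, 0.021 and 0.061), while TNS2 and TGFB1I1, picked out here after their values were seen, were called positive.

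**Figure D5:**
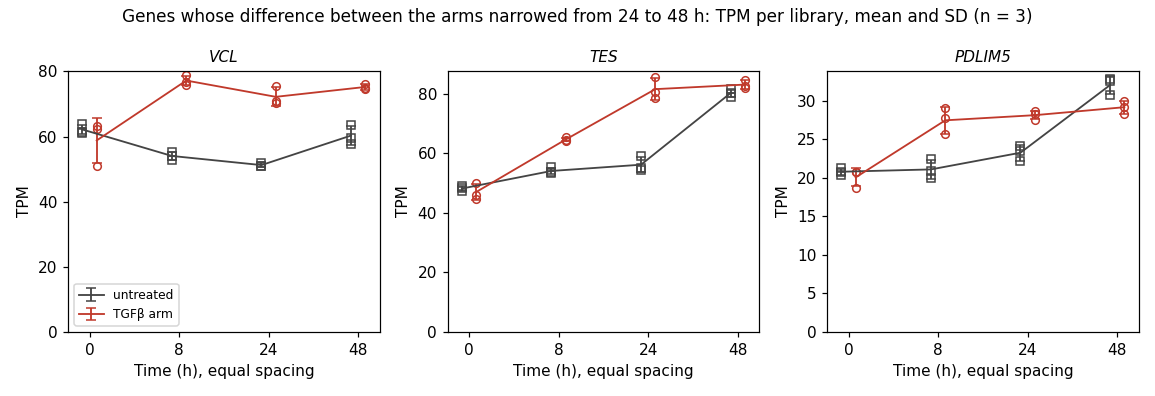
TPM of VCL, TES and PDLIM5 (vertical axes) in each library (open symbols) with group mean and SD (n = 3), in untreated cells (grey squares) and the TGFβ arm (red circles) at 0, 8, 24 and 48 h (equal spacing). Untreated cells rise from 24 to 48 h for all 3 genes. At 48 h the TES means are 80.2 and 83.0 TPM, close but with no overlap of libraries, and the TGFβ arm of PDLIM5 lies below the untreated one.

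The sequence before the start of some of these genes is shown because 4 of the genes that were higher with TGFβ hold the same motif there. Windows of 250 bases before to 50 after each RefSeq start (GRCh38.p14) were found for 34 of the 41 genes, 74 windows in all. The CArG box, the element bound by serum response factor, was searched on both strands and lies in 5 of the 74 windows (6.76%), those of ACTN1, FLNA, TGFB1I1, TES and LPP, and in 1.29% of all 35114 windows. The letters TGANTCA, an AP-1 element, lie in 7 of the 74 windows (9.46%), those of LIMS1, ACTN4, BCAR1, LPP and TRIP6, and in 7.71% of all windows. Neither motif is restricted to genes called in the main fit, since LPP, ACTN4 and BCAR1 were not called there. CATTCC, an element of TEAD factors, and CAGACA, an element of SMAD factors, lie in 12 and 13 of the 74 windows (16.2% and 17.6%) and in 14.0% and 16.9% of all windows. The shares for the AP-1, TEAD and SMAD elements are thus near those of all windows. Stretches of 100 bases follow, read 5′ to 3′ along the gene and ending before a RefSeq transcript start, with the CArG box in capitals for the first 4 and TGANTCA in capitals for LIMS1.
ACTN1: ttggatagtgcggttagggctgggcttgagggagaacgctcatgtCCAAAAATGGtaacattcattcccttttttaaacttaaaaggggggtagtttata
FLNA: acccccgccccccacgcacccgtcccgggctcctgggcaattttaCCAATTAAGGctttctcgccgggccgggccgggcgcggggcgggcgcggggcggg
TGFB1I1: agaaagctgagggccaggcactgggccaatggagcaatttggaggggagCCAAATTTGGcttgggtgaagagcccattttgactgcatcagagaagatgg
TES: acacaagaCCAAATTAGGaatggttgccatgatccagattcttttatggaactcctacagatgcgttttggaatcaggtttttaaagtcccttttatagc
LIMS1: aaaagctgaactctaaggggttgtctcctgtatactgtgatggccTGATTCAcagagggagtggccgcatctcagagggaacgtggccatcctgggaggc

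The ACTN1 stretch lies at chr14:68977683-68977782 on the minus strand. The FLNA stretch lies at chrX:154374674-154374773 on the minus strand. The TGFB1I1 stretch lies at chr16:31473105-31473204 on the plus strand. The TES stretch lies at chr7:116222703-116222802 on the plus strand. The LIMS1 stretch lies at chr2:108570602-108570701 on the plus strand. The FLNA stretch lies before the gene as GENCODE draws it. The other 4 lie within the gene and belong to alternative starts, 1658 bases downstream of the gene's own 5′ end for ACTN1, 1520 for TGFB1I1, 12197 for TES and 36931 for LIMS1. Counted from the transcript start, the CArG box lies at -171 to -162 in ACTN1, -94 to -85 in FLNA, -51 to -42 in TGFB1I1 and -242 to -233 in TES. A match describes these letters and not a bound site.

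The integrins, the receptors that these proteins serve, differed between the arms in both directions. Of 25 integrin genes, 12 were higher and 7 lower at 48 h (48.0% and 28.0%), against 16.1% and 16.4% of all tested genes. ITGB3, ITGB6 and ITGA11 had the largest positive log2 differences, 3.27, 3.18 and 2.62 (adjusted p = 1.5e-20, 3.7e-15 and 2.3e-18), and ITGB3 went from 14.3 ± 0.596 to 136.1 ± 5.45 TPM (SD, n = 3). ITGA8, ITGAM and ITGB2 had the largest negative ones, -3.66, -1.77 and -1.14 (adjusted p = 4.1e-15, 0.0035 and 5.7e-07). ITGAM was at 0.775 and 0.178 TPM.

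Of 48 further adhesion site partners 47 were tested, and 18 were higher and 5 lower at 48 h (38.3% and 10.6%), against 16.1% and 16.4% of all tested genes. ENAH, an actin elongation factor related to VASP, was at 136.3 ± 3.77 TPM in untreated cells and 510.7 ± 20.2 TPM with TGFβ (SD, n = 3), a log2 difference of 1.92 ± 0.075 (adjusted p = 8.3e-15). PHLDB1 had 1.44. CNN1 had 1.70 in counts, but in TPM it was at 0.732 ± 0.136 and 1.23 ± 0.381 (SD, n = 3), a smaller difference, and the libraries of the arms overlapped. PHLDB2, AJUBA and SHC1 had -1.02, -0.85 and -0.37. PHLDB1 and PHLDB2, a pair of related genes whose products link adhesions to microtubules, thus stood on opposite sides, at 23.0 and 61.3 TPM for PHLDB1 and 41.2 and 20.1 TPM for PHLDB2 without and with TGFβ.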

How the data were processed

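RNA of SK-MES1 cells was sequenced by the authors on an Illumina HiSeq instrument and quantified with kallisto 0.43.0 against Ensembl release 79 transcripts of GRCh38. The deposited estimated counts are what kallisto assigned to each transcript, as fractional read numbers with no normalization. The TPM values deposited by the authors divide these counts by effective length and scale each library to the same total. The deposited effective lengths served only for the length-scaled counts. No replicates were pooled.

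Transcripts were assigned to genes with GENCODE release 44 (155518 of 173259 matched) and summed per gene. Counts were rounded, and a gene entered the tests if 3 or more libraries held 10 or more. Testing was by limma 3.58.1 under R 4.3.3 (voom, TMM, 8 group means, Benjamini-Hochberg adjusted p below 0.01). The F-test covered 8, 24 and 48 h, and its log2 value is the mean of the 3 differences. Depth was 46613589 to 77964234 estimated counts per library. Precision of low genes such as KANK4, with as few as 3.0 estimated counts, is limited by counting. Alternatives were edgeR 4.0.16, DESeq2 1.42.0, other scalings, filters and thresholds, and leaving out each library. The scaling to 3 reference genes and the fit without replicate 2 of 0 and 24 h were added after the data were seen, and 1 planned scaling and 1 list are not reported here. Ratios and plots used Python 3.11.15 and matplotlib 3.10.9.

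The genes, lists, pairs, motifs and tests were chosen with earlier results of these data known. Genes with an adjusted p below 0.01 and at least 1.5-fold at 8, 24 or 48 h (13 of 41) are given in every library compared, the others by level and difference. Of all 17454 tested genes, 1070 met this rule at 8 h, 2196 at 24 h and 2651 at 48 h. The number that met it at any of these times is not given here. Of each pathway list, the 3 called genes with the largest positive and the 3 with the largest negative difference at 48 h are named. Transcripts are named where they hold at least 10% of the TPM of such a gene in some group and their share differs by at least 10 percentage points between the arms at 24 or 48 h without overlap. On simulated counts with 199 changed genes among 17209 tested, the limma F-test over 8, 24 and 48 h called 74 of 100 genes changed 1.5-fold, 85 of 99 changed 2-fold and 1 unchanged gene. A first bound on the number of recovered genes, a guess made without regard to low counts, was missed by all 3 tools and was lowered to pass, then replaced by limits on bias, false calls and recovery chosen with that result seen.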

Additional observations from a re-analysis of the deposited data

Results flagged for a closer look

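The difference between the arms changed from 24 to 48 h for 3 of the 41 focal adhesion genes, by a test of that change itself (limma voom, adjusted p below 0.01). All 3 were negative, 7.3% of the 41 genes, which is near the 5.61% of all tested genes called negative. A further 3.5% of all tested genes were called positive. The count therefore describes these 3 genes and does not set the 41 genes apart. The change was -0.24 ± 0.059 on the log2 scale for VCL (adjusted p = 0.0073), -0.48 ± 0.056 for TES (adjusted p = 3.7e-06) and -0.46 ± 0.074 for PDLIM5 (adjusted p = 0.00014). For each of them untreated cells rose between these times, and the TGFβ arm had values of -0.04, -0.03 and -0.06 that were not called. The 24 and 48 h libraries of an arm share a library code, so a constant offset between codes cancels in this value. With the 3 reference genes the values were -0.22, -0.45 and -0.44 and none was called (adjusted p = 0.32, 0.021 and 0.061). The call of VCL was lost in 8 of 12 other settings and in 16 of 24 fits without 1 library.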

How the results depend on the processing

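The count of focal adhesion genes called stayed within 1.5 times in all settings but these and 4 of the fits without 1 library. At 8 h, taking the change from 0 h left 14 genes in place of 25, and 1376 of all 17454 tested genes in place of 2858. The change of the difference from 24 to 48 h gave 6 at an adjusted p below 0.05, where 2705 of all tested genes were called. It gave 7 with replicate 2 of 0 and 24 h left out in both arms, where 2607 were called. The main fit called 3 and 1590. Leaving out replicate 2 was an alternative added after the data were seen. In it the change from 24 to 48 h gave 23 in untreated cells and 19 in the TGFβ arm. That change gave 38 in untreated cells and 38 in the TGFβ arm with the 3 reference genes, and 7 in the TGFβ arm with length-scaled counts; the cause was not tested. Leaving out 1 library at a time, counts ranged from 29 to 30 in the F-test, 19 to 27 at 8 h, 24 to 28 at 24 h, 23 to 25 at 48 h, 11 to 16 for the net change, 2 to 3 for the change of the difference, and, within arms, from 11 to 20 and 23 to 30 between 0 and 8 h and from 11 to 15 and 6 to 12 between 24 and 48 h (untreated and TGFβ arm). The count at 0 h was 0 throughout.

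Scaling to the 3 reference genes, added after the data were seen, turned 4 values: PTK2B (0.06 at 48 h), ACTN4 (0.35 at 24 h), LIMD1 (0.35 at 48 h) and LASP1 (0.30 at 24 h). Of 29 differences of at least 1.5-fold, 1087 of 1101 alternative values kept direction and call, 0 turned, and those that lost the call belong to TLN2 at 8, 24 and 48 h and to ZYX and KANK1 at 24 h. Same-numbered replicates of the arms correlated at -0.053 to 0.271, so the numbers were not taken as pairs. A replicate block gave 30 genes in the F-test, 25 at 8 h, 28 at 24 h, where SRC, TGFB1I1 and TRIP6 were added, and 25 at 48 h. Among all 17454 tested genes it called 8091, 3197, 5657 and 6227, in place of 7412, 2858, 5113 and 5688. For the 9 ratios every alternative kept direction and side of 0.05.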
